A study of Arabidopsis thaliana with 12 samples.

Results

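The genes described here encode 4 Arabidopsis thaliana proteins that bind or modify RNA, out of 691 genes that had a probe of their own on the array. They are AT1G01080 and AT3G08000, which encode proteins with an RNA recognition motif, AT3G09850, which encodes a G-patch protein, and AT2G30320, which encodes a member of the pseudouridine synthase family. Each had 1 probe annotated to it alone. They were picked with the difference between toc90 and WT in these data known, so their differences between the groups are given as a description and without a test. Total RNA was hybridised to arrays of 1 channel, giving 6 readings of the toc90 mutant and 6 readings of the wild type (WT), both in ecotype Columbia 0. Per the labels, toc90 is impaired in the import of proteins across the outer envelope of the chloroplast. The sources used here give neither the allele nor the tissue, age or growth of the plants, and do not say whether the readings of a group came from separate plants, so spreads and p-values measure the variation between readings, which may be technical. No annotated probe listed TOC90 itself (0 probes), so the labels were not checked by it.

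TOC90 belongs to a family of receptor GTPases at the outer chloroplast envelope that take up preproteins made in the cytosol. Most chloroplast proteins are encoded in the nucleus and enter the organelle this way, among them many factors that splice, edit, trim and stabilise chloroplast RNA. The RNA recognition motif is a small fold that binds single-stranded RNA. A G-patch is a short glycine-rich segment that in many proteins binds and activates RNA helicases. Pseudouridine synthases turn uridine in RNA into its isomer pseudouridine.

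The values are array intensities in arbitrary units with a floor at 0. Of all 3439 probes, 20.3% to 33.4% were listed at 0 in the toc90 readings and 13.5% to 17.3% in the WT readings. The median of all probes ran from 0.0593 to 0.0687 in toc90 and from 0.151 to 0.157 in WT. For log2 differences, columns were quantile normalized and zeros were left out. The median log2 difference of the 2687 probes tested was then -0.21. The number of readings limits the precision.

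AT1G01080, one of the RNA recognition motif genes, was much lower in toc90. Its deposited values had a lowest, median and highest reading of 0.0373, 0.0527 and 0.153 in toc90, against 0.537, 0.717 and 0.835 in WT. No toc90 reading reached the lowest WT reading, and a gap of 0.384 parted the groups. The means were 0.0678 ± 0.0425 in toc90 and 0.702 ± 0.120 in WT (SD, n = 6 each), so the mean was 10.4-fold lower in toc90. That fold is of deposited values, whose median over all probes was also lower in toc90. The log2 difference was -3.07 ± 0.33 (SE), or -2.86 relative to the median of all probes. Within toc90, number 6 stood apart at 0.153, with the next reading at 0.0604. Without it the log2 difference was -3.29.

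The AT2G30320 transcript, of the pseudouridine synthase family, was also lower in toc90. The lowest, median and highest readings were 0.0746, 0.116 and 0.172 in toc90, against 0.424, 0.489 and 0.564 in WT. Its groups were also apart, by a gap of 0.251, with toc90 the lower in all 6 readings. Its means were 0.120 ± 0.0411 in toc90 and 0.491 ± 0.0625 in WT (SD, n = 6 each), 4.10-fold lower in toc90. Here too the fold is of deposited values and includes their lower level over all probes in toc90. The log2 difference was -1.68 ± 0.23 (SE), or -1.47 relative to the median of all probes.

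The second RNA recognition motif gene, AT3G08000, lay near the floor in both groups. Its lowest, median and highest readings were 0, 0.0415 and 0.138 in toc90, against 0, 0.0437 and 0.0591 in WT. The groups overlapped, and 1 of 6 toc90 readings exceeded the highest WT reading. Numbers 4 and 5 of toc90 and number 2 of WT were at 0. The means were 0.0460 ± 0.0507 in toc90 and 0.0378 ± 0.0231 in WT (SD, n = 6 each), which differ by less than either SD. The log2 difference of 1.61 ± 0.34 (SE) rests on the 4 toc90 and 5 WT readings above 0. From the group means with zeros included it was 0.28, and toc90 was above the WT reading of the same number in 3 of 6 cases.

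For AT3G09850, the G-patch gene, the lowest, median and highest readings were 0, 0.0189 and 0.0959 in toc90, against 0, 0.0169 and 0.0298 in WT. Numbers 3 and 4 of toc90, at 0.0936 and 0.0959, lay above every WT reading, and the other 4 toc90 readings lay within the WT range. Numbers 2 and 6 of toc90 and number 1 of WT were at 0. The means were 0.0379 ± 0.0450 in toc90 and 0.0147 ± 0.0122 in WT (SD, n = 6 each), again with a difference smaller than the SD in toc90. The log2 difference was 2.96 ± 0.79 (SE) over 4 toc90 and 5 WT readings, and 1.36 from the group means with zeros included.

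**Figure D1:**
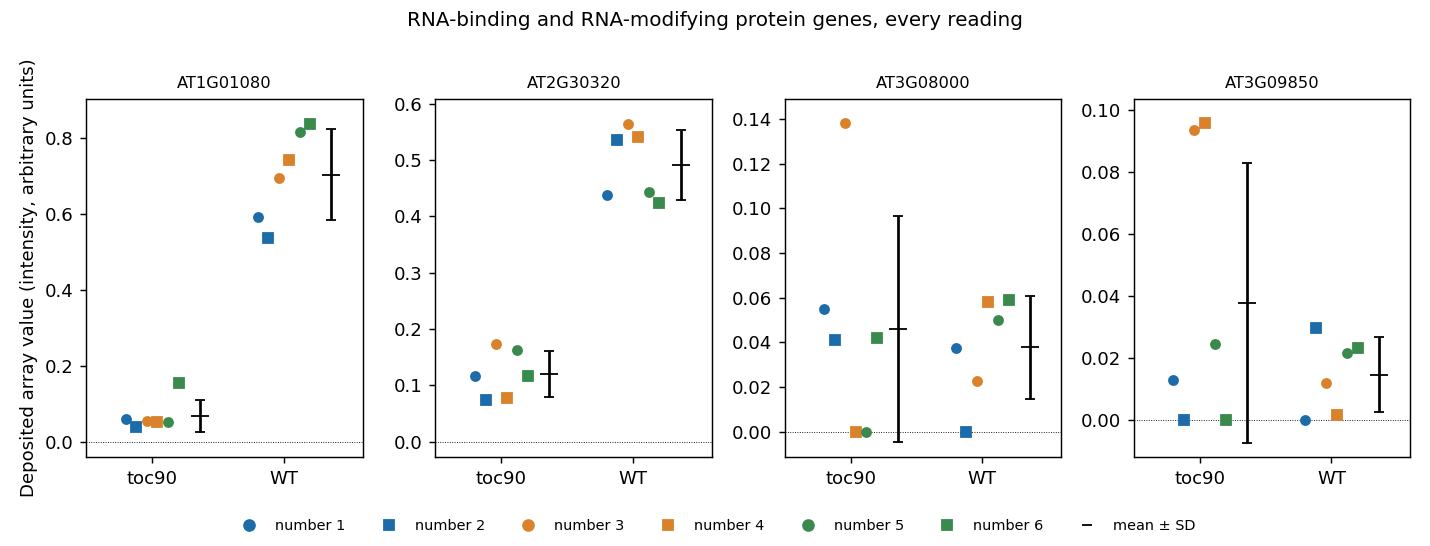
Deposited array value (arbitrary units, linear axis) of the 4 genes in each toc90 and WT reading, with neighbouring numbers in the same colour, odd numbers as circles and even ones as squares, and the mean ± SD beside the points. AT1G01080 and AT2G30320 show 2 separate groups with every toc90 reading lower, whereas AT3G08000 and AT3G09850 overlap and touch 0.

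The 4 genes thus fall into 2 kinds of measurement. AT1G01080 and AT2G30320 had no zeros, and 2 of 4 genes had every toc90 reading below every WT reading. Over all probes that arrangement was found in 19.9%, and over single-gene probes in 21.6%. It is what the genes were chosen on, so nothing is read from the count. Within 537 tested single-gene probes, AT1G01080 ranked 11 and AT2G30320 ranked 51 from the lowest log2 difference. AT3G09850 ranked 3 and AT3G08000 ranked 19 from the highest, in a fit that leaves out their zeros and in which dim probes as a class stood higher, so these ranks are not firm.

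Relative to all probes, AT1G01080 and AT2G30320 changed little under 3 ways of scaling the columns. Median scaling shifts each column by 1 constant, so for genes without zeros its agreement with the values as deposited is largely built in. The median of all probes was -0.21 with quantile normalization, 0.01 with median scaling and -0.72 with values as deposited. Relative to it, AT1G01080 stood at -2.86, -2.83 and -2.80 in the same order of scalings. AT2G30320 stood at -1.47, -1.41 and -1.38. AT3G08000 varied more, at 1.82, 1.22 and 1.20, and AT3G09850 stood at 3.17, 2.34 and 2.45. Both dim genes moved further when zeros were treated otherwise and columns were then quantile normalized. That scaling acts on the tied zeros too, so the values do not show the treatment of zeros alone. With zeros raised to the table's lowest positive value the log2 difference of AT3G08000 was 3.31 ± 3.32 and that of AT3G09850 was 5.17 ± 3.31 (SE). With zeros kept and an offset of 0.0683 added before log2 the values were 0.57 ± 0.28 and 0.62 ± 0.27 (SE). The same offset gave -1.995 ± 0.20 for AT1G01080 and -1.04 ± 0.15 for AT2G30320 (SE). Relative to the median of all probes, AT1G01080 then stood at -2.03 and AT2G30320 at -1.08. With zeros raised they stood at -2.46 and -1.14.

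**Figure D2:**
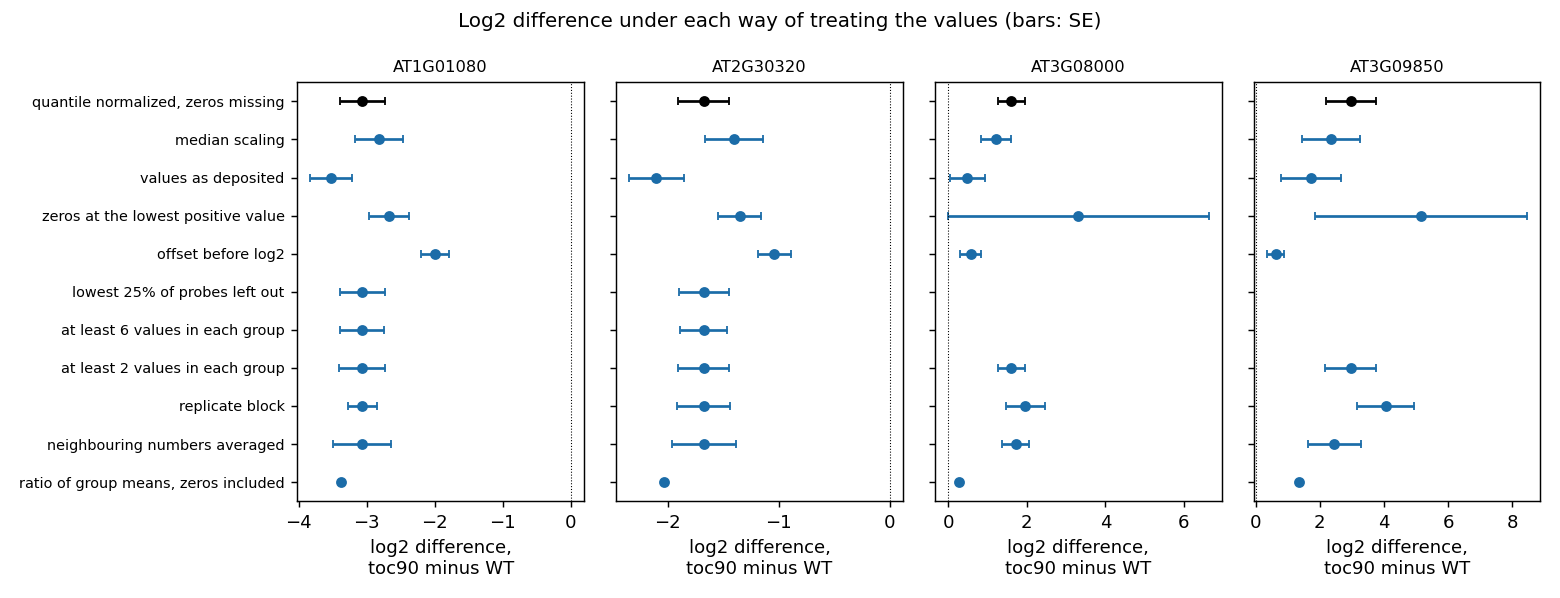
Log2 difference, toc90 minus WT, of each gene under each treatment of the values, with bars for the SE where a fit gives one and a dotted line at 0. AT1G01080 stays between -3.52 and -1.995 and AT2G30320 between -2.10 and -1.04, while AT3G08000 runs from 0.28 to 3.31 and AT3G09850 from 0.62 to 5.17, with the widest SEs where zeros are set to the lowest positive value.

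Dim probes as a class had higher log2 differences in this fit than brighter ones. AT3G08000 and AT3G09850 lay in the class with a mean of 0.025 to 0.05 over the 12 readings. Its 236 tested probes had a median log2 difference of 0.45, and the 5th and 95th percentiles were -1.20 and 2.35. That range holds AT3G08000 but not AT3G09850. Without number 4 of WT, its lowest WT reading above 0 (0.00162), AT3G09850 stood at 2.33, which that range holds. The range itself was not taken again without that reading. AT1G01080 and AT2G30320 lay in the class of 0.2 to 0.4. There the 450 tested probes had a median of -0.30 with 5th and 95th percentiles of -2.64 and 1.01, a range that holds AT2G30320 but not AT1G01080. The limma test at an adjusted p under 0.05 called 13.1% of the dim class higher in toc90 and 22.9% of the brighter class lower. What part the level of a probe has in the differences of these genes was not tested.

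**Figure D3:**
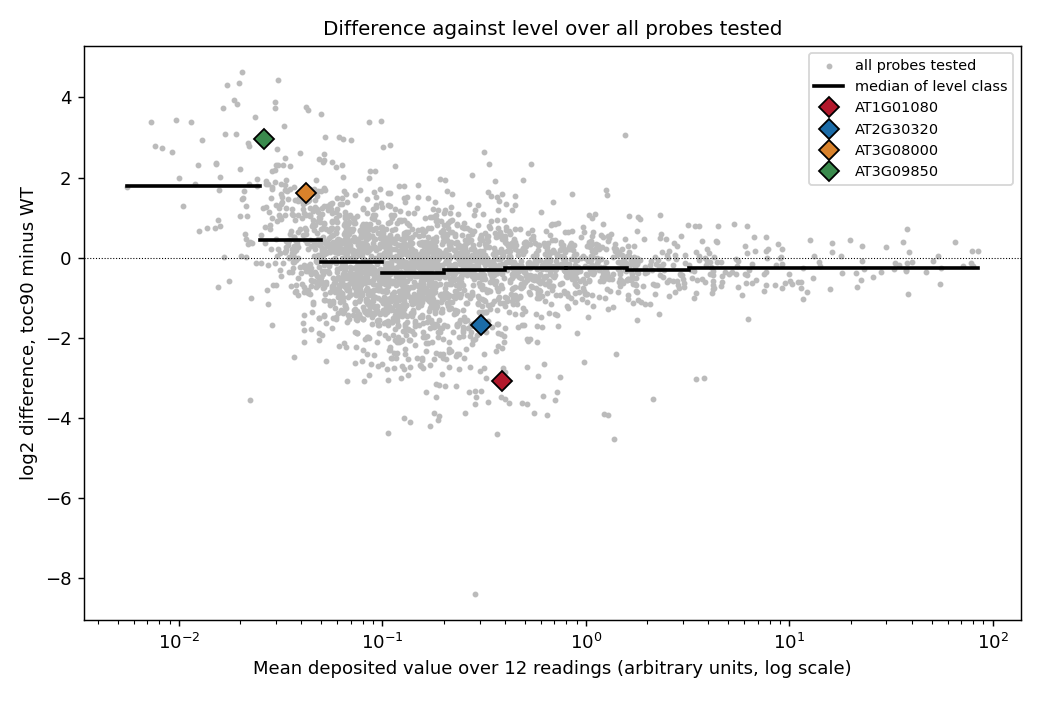
Log2 difference, toc90 minus WT, against the mean deposited value over 12 readings (log axis) for 2687 tested probes in grey, with the median of each level class as a black line and the 4 genes as diamonds. AT3G08000 and AT3G09850 lie at the dim end, where the class median is 0.45, and AT1G01080 and AT2G30320 lie below a class median of -0.30.

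The differences of all probes also varied with the order of probe IDs, taken in blocks of 96 and runs of 3 blocks. AT2G30320 lay in the first place of a run, where 10.2% of tested probes were called lower in toc90. AT1G01080 and AT3G08000 lay in the third, with 18.3% called lower and 6.61% higher, and AT3G09850 lay in the second, with 5.36% called higher. The part of this in the values of the 4 genes was not tested.

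AT1G01080 also appeared on a probe annotated to it together with a second gene. On that probe the lowest, median and highest readings were 0.0816, 0.330 and 0.433 in toc90, against 0.334, 0.450 and 0.475 in WT. The groups overlapped, with 3 of 6 toc90 readings below every WT reading. Means were 0.307 ± 0.136 in toc90 and 0.423 ± 0.0632 in WT (SD, n = 6 each), and the log2 difference was -0.38 ± 0.38 (SE). The single-gene probe of AT1G01080 stood at -3.07. Signal of AT1G01080 and of the second gene cannot be told apart on the shared probe.

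Readings of neighbouring numbers were close for some of these genes. In WT, AT1G01080 differed on average by 0.0410 between numbers 1 and 2, 3 and 4, and 5 and 6, and by 0.174 between other numbers. In toc90 the same averages for AT1G01080 were 0.0426 and 0.0403. For AT3G09850 in toc90 they were 0.0134 and 0.0610, where its high readings were the neighbours 3 and 4, and in WT 0.0139 and 0.0151. For AT2G30320 they were 0.0607 and 0.0469 in toc90 and 0.0462 and 0.0804 in WT. AT3G08000 did not show the pattern, at 0.0647 and 0.0552 in toc90 and 0.0274 and 0.0276 in WT. For AT1G01080 and AT2G30320, toc90 was below the WT reading of the same number in 6 of 6 cases. That follows from the separation of their groups, whatever the numbering, and adds nothing to it.

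Among single-gene probes with at most 4 zeros, the genes most alike to each of the 4 were found by Spearman correlation of deposited values over the 12 readings. For AT2G30320 these were AT5G06790 and AT5G49590 (rho = 0.97 each) and AT1G76450 (rho = 0.97). AT1G76450 had 0.0839 ± 0.0548 in toc90 and 2.67 ± 0.421 in WT (SD, n = 6 each). For AT1G01080 they were AT2G43760, AT3G44570 and AT4G09970 (rho = 0.92 each). These 6 genes all had lower means in toc90, and genes whose groups separate the same way share that part of the correlation. For AT3G09850 the most alike were AT1G03810 (rho = 0.90), AT1G35210 (0.76) and AT5G52970 (0.65). AT3G08000 was closest to AT2G28755 (rho = 0.74), AT4G34310 (0.68) and AT1G11470 (0.60). Of the genes most alike to AT3G09850 and AT3G08000, AT1G35210 had a higher mean in toc90 (0.0508, against 0.0450 in WT). The others had a lower mean in toc90, as did the median of all probes in the deposited values. The readings share arrays, level differences and the floor at 0, and no p is attached.

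The lists used here found few other genes of RNA binding, processing and modification with a probe of their own. How many the array holds is not known. The keyword lists, which covered RNA recognition motif, G-patch, pseudouridine synthase, other RNA-modifying, helicase, splicing and nuclease genes, found 0 genes, because the gene table used for names held no descriptions. A list of chloroplast ribonucleoprotein loci gave AT4G09040 besides AT1G01080, and 6 RNA factors were added by their symbols. Of the 6 genes that could be tested of these 7, 1 rose and 1 fell in toc90 (limma adjusted p under 0.05). Of all probes tested, 6.92% were called higher and 17% lower. The median log2 difference of the 6 genes was -0.09, against -0.21 for all probes. These calls take the readings of a group as independent. With neighbouring numbers averaged, limma called 0 of the 6 genes and 107 of the 2687 probes.

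The gene that rose was PAC (PALE CRESS), a chloroplast protein needed for the maturation of plastid RNA. Its lowest, median and highest readings were 0.390, 0.483 and 0.541 in toc90, against 0.228, 0.353 and 0.388 in WT, and all 6 toc90 readings lay above every WT reading. That arrangement was found in 1.4% of all probes. The log2 difference was 0.76 ± 0.21 (SE, limma adjusted p = 0.0244). The call ended without number 5 of WT, the lowest reading (0.65, limma adjusted p = 0.0512), and with neighbouring numbers averaged (0.76, limma adjusted p = 0.171). It also ended with the number of the reading as a block (0.76, limma adjusted p = 0.05001).

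The gene that fell was CRR21, a pentatricopeptide repeat protein of chloroplast RNA editing. Its lowest, median and highest readings were 0, 0.0366 and 0.0961 in toc90, against 0.191, 0.202 and 0.264 in WT. The groups did not overlap, with every toc90 reading below every WT reading, as in 19.9% of all probes and 21.6% of single-gene probes. The log2 difference over 5 toc90 and 6 WT readings was -1.27 ± 0.27 (SE, limma adjusted p = 0.00657). With neighbouring numbers averaged it was -1.18 (limma adjusted p = 0.0842), and with zeros raised to the table's lowest positive value it was -2.92 (limma adjusted p = 0.332), neither of which passed.

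AT4G09040 had a lowest, median and highest reading of 0, 0.0251 and 0.117 in toc90, against 0.0860, 0.151 and 0.201 in WT. Of its toc90 readings 5 of 6 lay below every WT reading, and the log2 difference over 5 toc90 and 6 WT readings did not pass (-0.76 ± 0.45, SE, limma adjusted p = 0.246). It was called only with values as deposited (-1.77, limma adjusted p = 0.0194), among the settings tried. OTP70, a splicing factor of chloroplast transcripts, had 0.717 ± 0.213 in toc90 and 0.992 ± 0.220 in WT (SD, n = 6 each), and its log2 difference of -0.53, which turned to 0.20 with median scaling, did not pass (limma adjusted p = 0.138). UBA1A, an RNA recognition motif protein, had 0.144 ± 0.112 in toc90 and 0.171 ± 0.0202 in WT (SD, n = 6 each). Its log2 difference was 0.35 over 5 toc90 and 6 WT readings (limma adjusted p = 0.622), -0.31 with values as deposited, and 0.88 without number 4 of toc90 (limma adjusted p = 0.00728), which passed. OTP85, an RNA editing factor, was listed at 0 in 4 of 6 toc90 readings and 5 of 6 WT readings and was not tested.

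ATAB2, an RNA-binding protein needed for translation of photosystem mRNAs in the chloroplast, is encoded next to AT3G08000 on the chromosome. Of the 16 protein-coding genes nearest to the 4 described here it was the 1 with a probe of its own. Its lowest, median and highest readings were 0, 0.0152 and 0.115 in toc90, against 0.0205, 0.0446 and 0.0930 in WT. The log2 difference of 1.12 ± 0.58 over 3 toc90 and 6 WT readings did not pass (SE, limma adjusted p = 0.201), and turned to -2.21 with zeros at the lowest positive value. In toc90 the highest reading was number 3 for both neighbours, at 0.138 for AT3G08000 and 0.115 for ATAB2. Number 3 was also the highest toc90 reading of AT2G30320 (0.172), CRR21 (0.0961) and UBA1A (0.299). The median of all probes was 0.0687 in that reading, the highest of the 6 toc90 readings. At the same time 31.9% of its probes were at 0, in a range of 20.3% to 33.4% over the toc90 readings. By contrast number 3 was the lowest toc90 reading of AT4G09040 (0) and of the shared AT1G01080 probe (0.0816). For AT1G01080 on its own probe, AT3G09850, OTP70 and PAC it was neither the highest nor the lowest. OTP85 was at 0 in number 3, one of its 4 toc90 readings at 0.

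**Figure D4:**
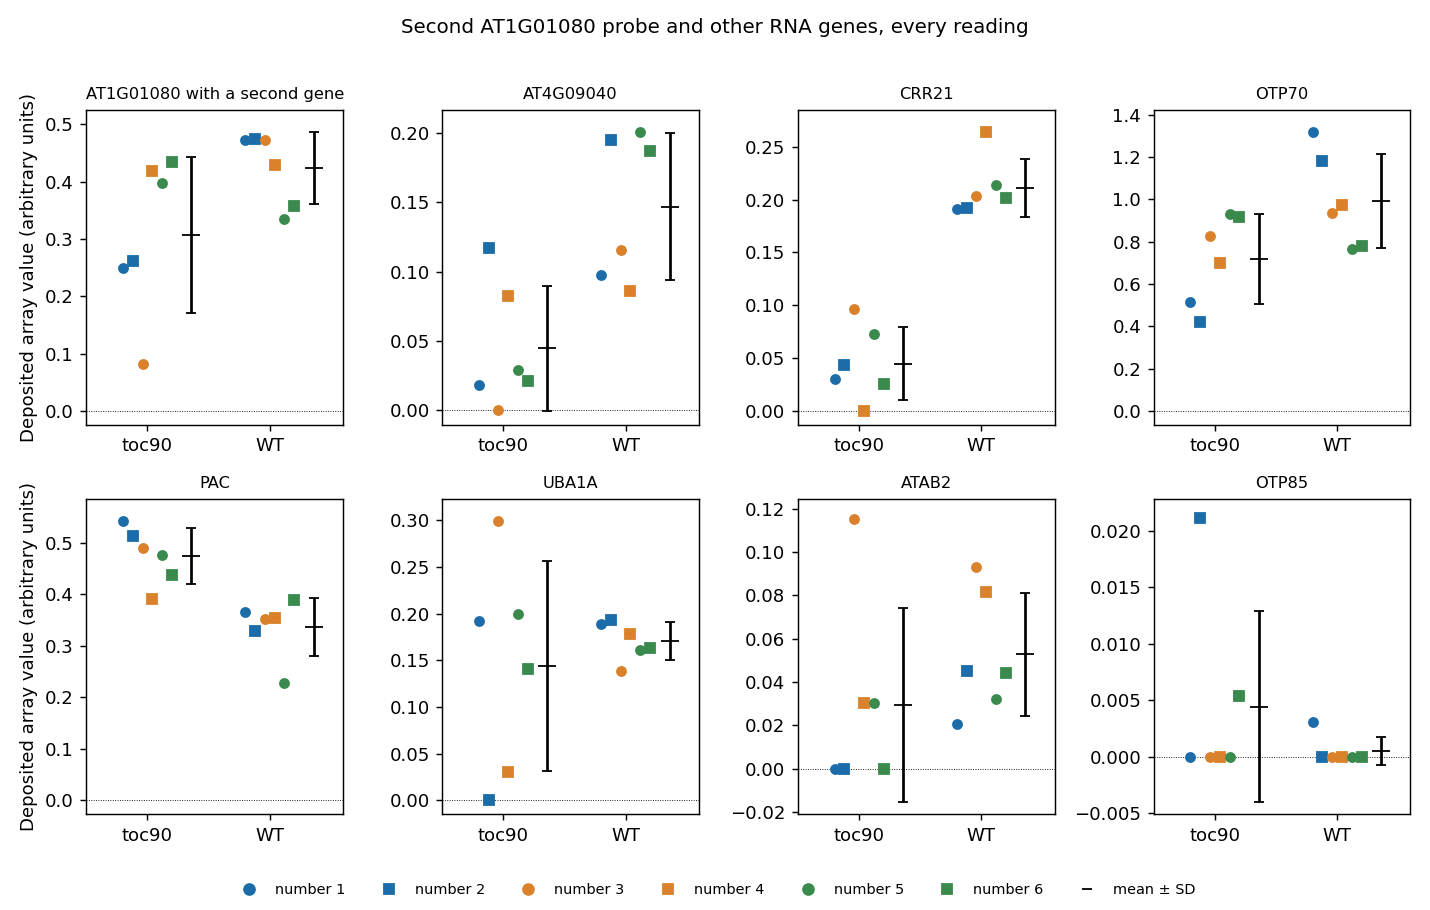
Deposited array value (arbitrary units, linear axes) in each toc90 and WT reading for the shared probe of AT1G01080 and for 7 other RNA genes, coloured by neighbouring numbers, with the mean ± SD beside the points. PAC lies higher and CRR21 lower in all 6 toc90 readings, and the groups overlap for the other genes shown.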

How the data were processed

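The deposited table held array intensity values of 12 samples, 1 channel each per the labels, from 0 to 100. How the authors scanned, corrected and scaled this intensity is not given in the sources used here. Groups and numbers came from the sample titles. Of 3439 probes, 692 had 1 annotated gene, and 690 of these matched the gene table of assembly TAIR10.1. The coordinates of that assembly gave the order of genes from which the nearest protein-coding genes were taken. They were not used to place probes, because the array's build is not given. For a gene with several such probes the one with the highest mean was taken. The members, lists and settings were chosen with earlier results of these data known, and the symbol list after the annotation was read.

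Zeros were treated as missing, and log2 values were quantile normalized. Probes with at least 3 values in each group entered a two-sided limma 3.58.1 fit (lmFit, then eBayes, R 4.3.3) with Benjamini-Hochberg adjustment over 2687 probes, a call being an adjusted p under 0.05. The fit was tested on simulated data. The 4 genes have no p.

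Named genes were the 4 genes, the members of the RNA lists with a single-gene probe, and for each of the 4 the 3 most alike by Spearman correlation. Alternatives covered scaling, zeros, low-value filters, the replicate block, neighbouring numbers averaged and each reading left out. The ratio of group means was added after seeing the data. Figures used matplotlib 3.10.9 in Python 3.11.15.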

Additional observations from a re-analysis of the deposited data

Results flagged for a closer look

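Of 24 sets of 6 readings, 6 held a reading far from the other readings of its group, where chance gives about 1 in 20. In toc90 they were AT1G01080 in number 6 (0.153, nearest 0.0604), ATAB2 in number 3 (0.115, nearest 0.0304) and OTP85 in number 2 (0.0212, nearest 0.00537). In WT they were PAC in number 5 (0.228, nearest 0.328), CRR21 in number 4 (0.264, nearest 0.213) and OTP85 in number 1 (0.00304, the others at 0). The sets share readings and are not independent. OTP85 held 4 zeros in toc90 and 5 in WT, and ATAB2 held 3 in toc90, so the rate of 1 in 20 does not apply to these sets. PAC only just passed the limit. No excess is read from the count.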

How the results depend on the processing

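All 4 genes kept their direction in every setting that gave them a value. For AT3G08000 and AT3G09850 each fit left zeros out or quantile normalized them with the other values, so their direction is not firm. In the deposited values the median of AT3G08000 was 0.0415 in toc90 and 0.0437 in WT, and that of AT3G09850 was 0.0189 and 0.0169. The settings that left out the dimmest 25% of probes or asked for 6 values in each group gave none for AT3G08000 and AT3G09850. With an offset, AT1G01080 moved to -1.995, AT2G30320 to -1.04, AT3G08000 to 0.57 and AT3G09850 to 0.62. Without scaling AT2G30320 moved to -2.10 and AT3G08000 to 0.49. Zeros raised to the table's lowest positive value before quantile normalization moved AT3G08000 to 3.31 and AT3G09850 to 5.17, and group means moved them to 0.28 and 1.36. Leaving out single readings gave -3.29 to -2.92 for AT1G01080, -1.75 to -1.50 for AT2G30320, 1.36 to 1.75 for AT3G08000 and 2.33 to 3.35 for AT3G09850. Over all probes limma called 643 (186 higher, 457 lower), 475 to 620 without single readings. It called 981 without scaling (85 and 896), 260 with zeros raised (167 and 93) and 107 with neighbouring numbers averaged (30 and 77). Median scaling gave 431 higher and 339 lower, and an offset 254 and 294. Calls among the 6 other RNA genes were 2, and 1 to 3 without single readings. They were 3 without scaling (1 higher and 2 lower, AT4G09040 among the lower), 1 with zeros raised, 1 with 6 values in each group (2 genes tested) and 0 with neighbouring numbers averaged (limma, with 2 genes at an unadjusted p under 0.05). OTP70 turned to 0.20 with median scaling, UBA1A to -0.31 without scaling and -2.06 with zeros raised, and ATAB2 to -2.21 in that setting. The cause was not tested.

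Same-numbered readings of the 2 groups correlated at 0.08 to 0.25 in their deviations from the group means (mean 0.16, other numbers -0.03), and among readings of the other group 12 of 12 correlated best with their own number. Neighbouring numbers within a group correlated at 0.43, 0.50 and 0.52 in WT and at 0.13, -0.08 and 0.35 in toc90, for 1 and 2, 3 and 4, and 5 and 6 in that order. The number as a replicate block gave 418 calls (118 and 300), 1 of them among the other RNA genes, since PAC had a limma adjusted p of 0.05001. AT3G09850 stood at 4.05 and AT3G08000 at 1.96 with the block.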
